A study of Homo sapiens with 8 samples.

Results

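The enterocyte brush border and villin genes comprise 10 genes that were chosen by name: VIL1, EZR, MYO1A, CDHR2, CDHR5, ALPI, ALPP, ANPEP, DPP4 and SLC26A3. All 10 have a row in the gene count table, which holds 54261 genes and 8 libraries. The libraries are total RNA of 5 human intestinal lines at passage 5. NCM460 and HIEC6 are labelled normal intestinal epithelial lines, each with 1 untreated library, and DLD1, HCT116 and HCT8 are colorectal cancer (CRC) lines, each with 1 untreated library and 1 labelled hypoxia. All 5 lines were grown in DMEM with 10% fetal bovine serum at 37°C and 5% CO2. The oxygen level and its duration are not given in the sources used here, and each group is a set of different lines with no repeat culture of any line.

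Enterocytes carry a brush border, a dense carpet of microvilli on the apical face that enlarges the absorbing surface. Each microvillus holds a bundle of actin filaments that villin (VIL1) crosslinks, ezrin (EZR) ties to the membrane and the motor myosin 1A (MYO1A) links sideways to the membrane. The protocadherins CDHR2 and CDHR5 join the tips of neighbouring microvilli. Alkaline phosphatases (ALPI and, in placenta, its relative ALPP) and the peptidases ANPEP (aminopeptidase N) and DPP4 are anchored on the surface, and SLC26A3 exchanges chloride for bicarbonate in mature colonocytes. Many brush border genes rise as cells leave the crypt, so their levels are commonly read as a measure of differentiation. That reading does not extend to ALPP, named above for placenta, or to EZR, which had at least 421 CPM in every library.

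Library totals ran from 45519306 to 57374239 counts, so that 1 count stood for 0.0174 to 0.0220 counts per 1000000 (CPM), and 3 counts, taken as the floor of detection, for 0.0523 to 0.0659 CPM. Levels below are CPM by column total. Intervals are exact 95% Poisson limits or, for ratios, conditional binomial limits, and cover counting error only. Across 21647 genes, the library labelled NCM460 correlated more closely with untreated HCT116 (r = 0.989, log2 scale) than with HIEC6 (r = 0.876), although the labels place them in different groups. Each r is taken over genes, which do not replicate each other. Of 12 general epithelium markers, 6 reached 1 CPM in HIEC6 and 12 in each of the other libraries. In HIEC6, EPCAM stood at 0.176 CPM and ESRP1 at 0.0882 CPM, and no CLDN3 count was seen, whereas CDH1 had 3.03 CPM and the keratins KRT8 and KRT18 had 4290 and 3725 CPM. Its summed level over 20 fibroblast and mesenchyme genes was 3186 CPM, against 16.7 to 206 CPM in the other libraries. The labels' extraction text names prefrontal cortex, and of 12 brain genes 6 stayed below 1 CPM in all libraries. STMN2 and MOG had no count, while SYT1 stood at 68.8 CPM in NCM460 and at 128 and 159 CPM in HCT116, and MBP at 10.8 to 118 CPM in all libraries. Members' values in the 2 normal lines are given singly before any mean.

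The promoters of the intestinal and placental type phosphatase genes are shown because these genes form 1 tandem cluster on chromosome 2, and their levels varied widely between libraries. ALPP lies at chr2:233243434-233247599, ALPPL2 (also named ALPG) at chr2:233271554-233275424 and ALPI at chr2:233320835-233325463, all on the plus strand of GRCh37. Each RefSeq promoter runs from 250 bases before to 50 bases after the start of the RefSeq gene, which for ALPP and ALPI differs from the annotated start above, and covers chr2:233243211-233243510 (ALPP), chr2:233271304-233271603 (ALPG) and chr2:233320613-233320912 (ALPI) in GRCh37. The table's build is GRCh38.p14, and each promoter had 1 exact match in GRCh37. Capitals mark the longest run that all 3 share, of 15 bases.
ALPP: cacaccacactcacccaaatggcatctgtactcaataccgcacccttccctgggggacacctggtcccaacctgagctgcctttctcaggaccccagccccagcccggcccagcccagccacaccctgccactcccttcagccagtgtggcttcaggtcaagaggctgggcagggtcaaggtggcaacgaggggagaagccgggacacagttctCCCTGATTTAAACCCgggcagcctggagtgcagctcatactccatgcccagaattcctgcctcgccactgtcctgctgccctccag
ALPG: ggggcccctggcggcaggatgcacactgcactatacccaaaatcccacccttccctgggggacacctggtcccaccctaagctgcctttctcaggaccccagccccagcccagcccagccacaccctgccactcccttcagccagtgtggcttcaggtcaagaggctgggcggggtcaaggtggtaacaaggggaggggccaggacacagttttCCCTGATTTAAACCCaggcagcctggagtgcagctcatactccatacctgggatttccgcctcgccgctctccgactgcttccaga
ALPI: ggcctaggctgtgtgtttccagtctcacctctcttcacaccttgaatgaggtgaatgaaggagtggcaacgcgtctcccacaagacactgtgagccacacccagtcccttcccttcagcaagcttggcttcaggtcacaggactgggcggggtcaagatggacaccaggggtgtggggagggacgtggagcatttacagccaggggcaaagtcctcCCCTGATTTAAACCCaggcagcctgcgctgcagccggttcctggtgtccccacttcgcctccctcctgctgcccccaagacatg
The ALPP and ALPG promoters were identical at 89.9% of aligned bases, ALPP and ALPI at 70.6%, and ALPG and ALPI at 72.7%. The shared run holds TTTAAA, searched on both strands, which 12.2% of all 35116 promoters of this length also hold. ACGTG, the core of the element bound by hypoxia-inducible factors, had 1 match in ALPI and not in ALPP or ALPG, and 21.4% of all promoters hold it.

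Promoters were found for 8 of the 10 members, in 11 entries, and those of VIL1 and CDHR5 were not in the table. EZR and SLC26A3 are shown as the member with at least 421 CPM in every library and the undetected one, with every CG in capitals. They lie on the minus strand at chr6:159239218-159239517 and chr7:107443619-107443918 in GRCh37.
EZR: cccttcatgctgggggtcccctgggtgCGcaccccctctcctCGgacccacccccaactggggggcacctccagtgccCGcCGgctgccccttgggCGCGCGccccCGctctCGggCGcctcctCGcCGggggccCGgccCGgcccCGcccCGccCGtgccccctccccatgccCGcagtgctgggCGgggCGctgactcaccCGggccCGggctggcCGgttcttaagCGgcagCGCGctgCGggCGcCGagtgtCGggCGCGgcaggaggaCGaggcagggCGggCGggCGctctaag
SLC26A3: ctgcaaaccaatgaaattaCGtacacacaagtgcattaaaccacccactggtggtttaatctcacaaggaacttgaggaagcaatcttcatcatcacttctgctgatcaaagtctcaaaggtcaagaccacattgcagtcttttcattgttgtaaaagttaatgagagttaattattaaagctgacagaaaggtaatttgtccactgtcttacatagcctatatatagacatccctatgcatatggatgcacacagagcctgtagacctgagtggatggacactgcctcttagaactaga
The EZR promoter holds 36 CG dinucleotides and that of SLC26A3 holds 1, where the median promoter holds 14 and the 10th and 90th percentiles are 1 and 37. The SLC26A3 promoter also has 1 match to CAAAGTC, the core letters of an HNF4 site, which 3.37% of promoters hold. The match is not particular to it, since the ALPI promoter and an entry each of CDHR2 and MYO1A also have 1. ACGTG had 2 matches in the DPP4 promoter and at no place in the EZR promoter. These matches describe letters only.

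The members divided into 1 gene that was abundant in all libraries, 1 that was not detected, and 8 that were low or at the floor in some libraries and higher in others. EZR was the abundant one and SLC26A3 the undetected one. Between genes only levels per length can be set side by side: in untreated HCT8, EZR stood at 147 CPM per kb of exon, VIL1 at 37.6, ALPP at 22.7, ALPI at 2.49, DPP4 at 0.561 and MYO1A at 0.388. The length is the union of all annotated exons of a gene, 14432 bases for DPP4, 6891 for VIL1 and 3286 for EZR. Where the expressed transcript is shorter than that union, the level per kb is too low. In untreated HCT116 the same measure was 680 CPM per kb for EZR, 0.712 for DPP4 and 0.00556 for VIL1.

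**Figure D1:**
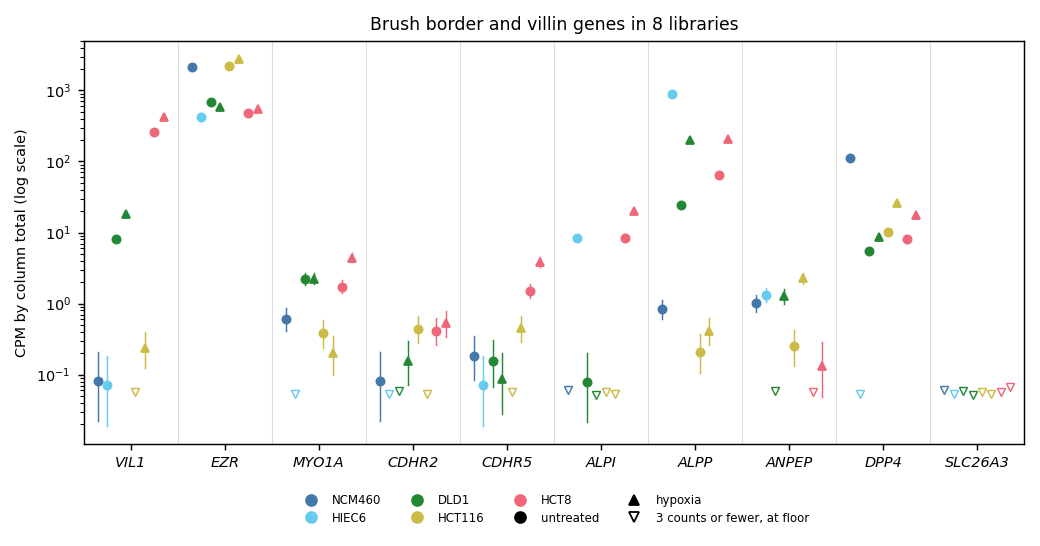
CPM by column total (log axis) of the 10 genes in the 8 libraries, coloured by line, with circles for untreated and filled triangles for hypoxia libraries. Vertical lines are exact 95% Poisson limits, and open triangles pointing down mark 3 counts or fewer, drawn at each library's floor. VIL1 spans from the floor to 425 CPM, EZR stays at or above 421 CPM throughout, and SLC26A3 is at the floor throughout.

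VIL1 (ENSG00000127831, chr2:219283844-219318018, plus strand) differed widely between the lines. Untreated HCT8 held 13632 counts, which is 259 CPM (255 to 263), and HCT8 under hypoxia 19353 counts, which is 425 CPM (419 to 431). DLD1 held 411 and 1055 counts, 8.03 and 18.4 CPM. The remaining libraries were at or near the floor, with 4 counts in NCM460, 4 in HIEC6, 2 in untreated HCT116 and 13 in HCT116 under hypoxia. The untreated HCT8 level was 32.3 times that of DLD1 (29.2 to 35.7). Villin RNA was thus within 1 count of the floor in both lines labelled normal, with intervals that overlapped those of both HCT116 libraries. Of the VIL1 exon bases, 44.2% overlap exons of USP37 on the opposite strand, and the counting's use of strand is not given in the sources used here. USP37 ran from 36.9 to 92.5 CPM across all 8 libraries and had 2374 counts in untreated HCT116, where VIL1 had 2.

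EZR (ENSG00000092820, chr6:159186773-159240400, minus strand) had 2129 CPM in NCM460 and 421 CPM in HIEC6. Untreated DLD1, HCT116 and HCT8 held 695, 2236 and 482 CPM, and the same lines under hypoxia 585, 2750 and 545 CPM. NCM460 and both HCT116 libraries formed the upper cluster, and HIEC6, DLD1 and HCT8 the lower one, so the order of EZR across lines was not that of VIL1.

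MYO1A (ENSG00000166866, chr12:57422301-57444982, minus strand) stayed below 5 CPM. DLD1 held 114 counts untreated and 128 under hypoxia (2.23 CPM in both), and HCT8 91 and 202 counts (1.73 and 4.44 CPM). HCT116 held 20 and 11 counts (0.383 and 0.199 CPM), NCM460 30 counts (0.610 CPM) and HIEC6 1 count. Every DLD1 and HCT8 value exceeded every value of the other 3 lines. The untreated DLD1 and HCT8 levels differed by less than counting error (ratio of HCT8 to DLD1 0.776, 0.583 to 1.03).

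The protocadherins were scarce. CDHR2 (ENSG00000074276, chr5:175969512-176022975, plus strand) had 4 counts in NCM460, 2 in HIEC6, 1 and 9 in DLD1, 23 and 3 in HCT116 and 22 and 24 in HCT8, at most 0.527 CPM (0.338 to 0.785). The 2 libraries differed by more than counting error within DLD1 and within HCT116. CDHR5 (ENSG00000099834, chr11:616577-626078, minus strand) reached 79 counts (1.5 CPM, 1.19 to 1.87) in untreated HCT8 and 176 counts (3.87 CPM, 3.32 to 4.48) under hypoxia, and had 9 counts in NCM460, 4 in HIEC6, 8 and 5 in DLD1 and 0 and 25 in HCT116. CDHR5 was thus above 1 CPM in the HCT8 libraries alone.

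The phosphatases had another order. ALPP (ENSG00000163283) was highest in HIEC6 with 51070 counts (900 CPM, 893 to 908) and held 41 counts (0.834 CPM) in NCM460. The DLD1 level was 24.5 CPM untreated and 199 CPM under hypoxia, and the HCT8 level 65.1 and 205 CPM, whereas HCT116 held 11 and 23 counts (0.211 and 0.415 CPM). ALPI (ENSG00000163295), the intestinal enzyme, was detected above 4 counts in 3 libraries only: 478 counts in HIEC6 (8.43 CPM), 439 in untreated HCT8 (8.34 CPM) and 921 in HCT8 under hypoxia (20.2 CPM). Untreated HCT8 and HIEC6 did not differ in ALPI beyond counting error (ratio 0.989, 0.867 to 1.13). NCM460 and both HCT116 libraries had no ALPI count, and DLD1 had 4 and 0.

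The phosphatases share sequence, and how reads with several matches were counted is not given in the sources used here. ALPP and ALPPL2 transcripts were identical at 91.7% of aligned bases, and 26.5% of the 50-base words of ALPP also occur in ALPPL2. ALPP and ALPI were identical at 82.5% and shared 1.40% of ALPP's 50-base words. ALPI counts amounted to 0.936% of ALPP counts in HIEC6 (0.854 to 1.02) and to 12.8% in untreated HCT8 (11.6 to 14.1). In DLD1 under hypoxia there was no ALPI count beside 11396 of ALPP, which allows at most 0.0324%. The ALPI to ALPP ratio thus differed between libraries by more than counting error. ALPPL2 held 25.7 CPM in untreated HCT8 and 160 CPM under hypoxia, but 4.97 CPM in HIEC6, where ALPP was highest. The values of ALPP and ALPPL2 remain uncertain where reads could be split between them. An antisense lncRNA also overlaps 22% of ALPP exon bases.

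**Figure D2:**
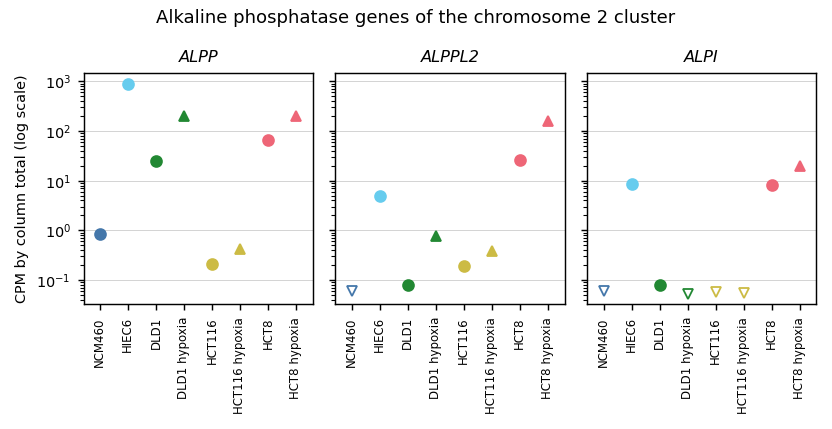
CPM by column total (log axis, shared) of ALPP, ALPPL2 and ALPI in the 8 libraries, coloured by line, with filled triangles for hypoxia and open triangles for 3 counts or fewer at the floor. ALPP peaks at 900 CPM in HIEC6, ALPPL2 at 160 CPM and ALPI at 20.2 CPM in HCT8 under hypoxia.

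Of the peptidases, DPP4 (ENSG00000197635, chr2:162848755-162930904, minus strand) was highest in NCM460 with 5478 counts (111 CPM, 108 to 114) and had 1 count in HIEC6. The CRC lines lay between them, with 5.41 CPM in DLD1, 10.3 in HCT116 and 8.09 in HCT8 before and 8.54, 26.1 and 17.6 CPM under hypoxia. The NCM460 level was 10.8 times that of untreated HCT116 (9.91 to 11.9), the library it otherwise resembled most. ANPEP (ENSG00000166825, chr15:90328126-90358633, minus strand) did not exceed 2.26 CPM. It held 50 counts in NCM460, 76 in HIEC6, 73 in DLD1 under hypoxia and 125 in HCT116 under hypoxia, against 0, 13 and 1 in untreated DLD1, HCT116 and HCT8 and 6 in HCT8 under hypoxia.

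SLC26A3 (ENSG00000091138, chr7:107405912-107443670, minus strand) had 1 count in DLD1 under hypoxia and none in the other 7 libraries. In those 7 libraries the floor of 3 counts stood at 0.0529 to 0.0659 CPM, and the exact 95% upper limit of a count of 0 at 0.0650 to 0.0810 CPM.

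The comparison of the untreated CRC lines with the normal lines asks whether the members differ between the study's groups. No member passed edgeR's quasi-likelihood test (adjusted after Benjamini and Hochberg). The 3 CRC lines averaged 89.0 ± 147 CPM of VIL1 (SD, n = 3), and the 2 normal ones 0.0759 ± 0.00763 (SD, n = 2), a log2 fold change of 9.87 (SE 3.87, adjusted p = 0.999). The groups overlapped, since untreated HCT116 held 2 counts and each normal line 4, a difference within counting error (ratio of NCM460 to HCT116 2.12, 0.304 to 23.5). EZR averaged 1137 ± 957 and 1275 ± 1208 CPM, with a log2 fold change of -0.26 (SE 0.96). ALPP averaged 29.9 ± 32.8 CPM against 451 ± 636 CPM, and DPP4 7.93 ± 2.44 CPM against 55.7 ± 78.7 CPM. Of the members, 8 were tested and 0 called (CDHR5 and SLC26A3 had too few counts), where the background was 0% of 19964 genes. Their median log2 fold change was -0.61, against -0.0048 for all genes tested. At an unadjusted p under 0.05 there were 542 genes, VIL1 among them, and DESeq2 called 143 genes (0.716%) with VIL1 as the only member (adjusted p = 0.00304) and no adjusted p for ALPI and CDHR2.

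Single normal libraries decided the direction of 3 members. Without NCM460, the log2 fold change was 1.22 for EZR and 8.40 for DPP4, both positive, and without HIEC6 that of ALPP was 4.99. EZR also turned without untreated DLD1 (0.02) and without untreated HCT8 (0.14). That of VIL1 was 9.89 without NCM460, 9.85 without HIEC6 and 10.45 without HCT116, and without DLD1 or HCT8 the gene no longer passed the filter on counts. It was 5.53 in limma-trend and 3.20 with the replicate number as block.

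The comparison of hypoxia with untreated CRC lines asks how the members moved with the treatment. In 4 of the 9 members tested, VIL1, ALPP, ANPEP and DPP4, the CPM was higher under hypoxia in all 3 lines, where 16.2% of all genes tested were higher in all 3. No member was lower in all 3, against 26.4% of all genes. The hypoxia response genes, a check of the labels, were higher in 16 of 16 in DLD1, 16 of 16 in HCT116 and 15 of 15 above the floor in HCT8. Run labels and treatment cannot be told apart, because no untreated CRC library shares a run label with a hypoxia library.

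For VIL1 the ratio of hypoxia to untreated CPM was 2.29 in DLD1 (2.04 to 2.57) and 1.64 in HCT8 (1.61 to 1.68). In HCT116 it was 6.13 (1.39 to 55.9) and rested on 2 and 13 counts. ALPP had ratios of 8.11 in DLD1 (7.65 to 8.60), 1.97 in HCT116 (0.923 to 4.48) and 3.15 in HCT8 (3.02 to 3.27), and ALPPL2 10.0, 1.98 and 6.24. The ratios of both genes had the same order of lines, with the HCT116 interval reaching below 1 in both. ALPI was higher under hypoxia in HCT8 (ratio 2.43, 2.16 to 2.72) had 4 and 0 counts in DLD1, and could not be compared in HCT116. DPP4 had ratios of 1.58 in DLD1, 2.54 in HCT116 and 2.18 in HCT8, each with its interval above 1. CDHR5 and MYO1A had ratios of 2.58 and 2.57 in HCT8, and the MYO1A ratio was 1.0 in DLD1 (0.773 to 1.30) and 0.519 in HCT116 (0.224 to 1.14). All 9 members with more than 3 counts in HCT8 were higher there, 7 of them with an interval above 1. In DLD1 this held for 6 of 9, 4 with an interval above 1, and in HCT116 for 6 of 8, 4 with an interval above 1. The shares of all genes that were higher, or had such an interval, within a single line were not computed. These counts therefore have no background to be read against, and the same holds for the fibroblast genes by line below.

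**Figure D3:**
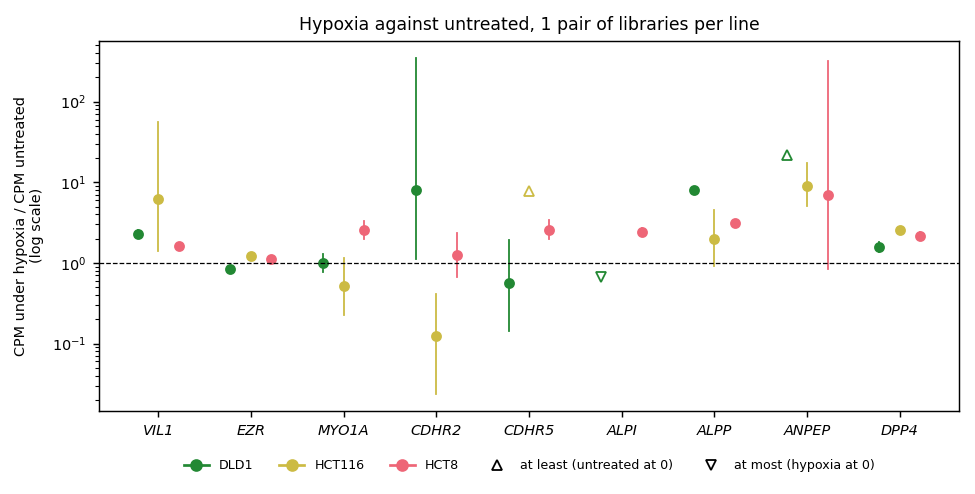
Ratio of hypoxia to untreated CPM (log axis) of 9 members in DLD1, HCT116 and HCT8, with 95% limits for counting error. Open triangles are bounds set against 3 counts where 1 library had none, the dashed line marks no change, and ALPI has no point in HCT116. All VIL1, ALPP, ANPEP and DPP4 points lie above 1, and the 3 EZR points lie between 0.842 and 1.23.

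Across lines, the test without pairing called 0 of 9 members and 0% of 21045 genes (606 at an unadjusted p under 0.05), and DESeq2 called 55 genes (0.261%) and no member, with no adjusted p for VIL1, ALPI and CDHR2. Of the 9 log2 fold changes 8 were positive, with a median of 1.27 against 0.06 for all genes tested. The line-to-line spread enters that fit. With the cell line as block, edgeR called 1 of 9 members against 0.95% of all genes: ALPP rose by a log2 fold change of 2.19 (SE 0.34, adjusted p = 0.0315). ALPPL2 changed by 2.48 (SE 0.34, adjusted p = 0.0221). The blocked values that missed the threshold were 4.25 for ANPEP (adjusted p = 0.0808), 1.18 for DPP4 (adjusted p = 0.0856) and 1.13 for VIL1 (adjusted p = 0.101). DESeq2 with the same block called ALPP, DPP4 (adjusted p = 0.00298) and VIL1 (adjusted p = 0.0183), gave no adjusted p for ANPEP and CDHR2, and called 7.92% of all genes. Without both HCT8 libraries, the blocked edgeR fit called no member and 6 genes.

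ANPEP and most fibroblast genes were higher under hypoxia in DLD1 and HCT116, but fibroblast genes did not share 1 order over the libraries. VIM, FBN1 and COL5A1 were highest in HIEC6, at 1223, 968 and 723 CPM. ANPEP had at least 21.7 times more CPM under hypoxia in DLD1 and 9.07 times more in HCT116 (5.11 to 17.5), while in HCT8 the ratio of 6.94 rested on 1 and 6 counts. Fibroblast and mesenchyme genes were higher under hypoxia in 18 of 18 above the floor in DLD1 and 19 of 20 in HCT116, but in 6 of 13 in HCT8. Their summed level went from 16.7 to 118 CPM in DLD1, from 55.8 to 206 CPM in HCT116 and from 21.3 to 30.1 CPM in HCT8. POSTN, a secreted matrix protein, stood at 4.2 CPM in DLD1 under hypoxia, 5.78 in HCT116 under hypoxia and 3.40 in NCM460, and at 0 to 0.115 CPM in the other 5 libraries. These 3 libraries are the ones whose labels list a second run. With the line block, 18 of 18 fibroblast genes tested were higher, with a median log2 fold change of 1.73 against 0.03 for all genes. The share of all genes higher in that fit was not computed. Of the 18, 2 were called, where 0.741% of all genes were called higher. They were POSTN (log2 fold change 6.04, adjusted p = 0.0449) and FN1 (2.80, adjusted p = 0.0295). DCN and LUM stayed at or below 0.379 CPM in all libraries, with LUM at 1 and 18 counts in DLD1 and 6 and 19 in HCT116, and DCN at 0 and 15 and at 8 and 21. ANPEP and DPP4 are also known from fibroblasts, and HIEC6, with the highest fibroblast sum, had 1 DPP4 count. The part of these genes in the ANPEP and DPP4 values was not tested.

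**Figure D4:**
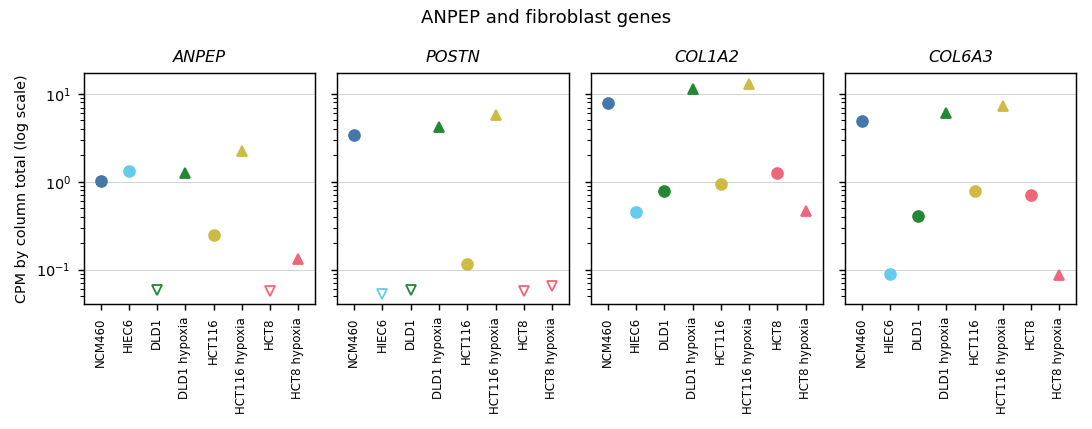
CPM by column total (log axis, shared) of ANPEP and of the fibroblast genes POSTN, COL1A2 and COL6A3 in the 8 libraries, coloured by line, with filled triangles for hypoxia and open triangles for 3 counts or fewer at the floor. NCM460, DLD1 under hypoxia and HCT116 under hypoxia are the 3 highest libraries for each of the fibroblast genes shown, and HIEC6 is high for ANPEP alone of these 4 genes. Other genes of the list, such as VIM, FBN1 and COL5A1 (not shown), were highest in HIEC6.

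Differences between the CRC lines were tested over both conditions, with treatment as a term, so that the 2 libraries of a line stand in for replicates and p-values measure how far a line difference varied between conditions. In HCT116 against the mean of DLD1 and HCT8, 7 of 9 members tested were called, 3 higher and 4 lower, where 32.8% of all genes tested were called (18.4% higher and 14.4% lower). VIL1 was lower (log2 fold change -8.63, SE 0.44, adjusted p = 5.37e-06), as were ALPP (-8.09, SE 0.50, adjusted p = 1.19e-05) and MYO1A (-2.84, SE 0.61, adjusted p = 0.00857). ALPI was lower too (adjusted p = 0.0125), and with no ALPI count in HCT116 its size is given as a bound: untreated HCT8 was at least 145-fold higher than HCT116. EZR was higher in HCT116 (2.42, SE 0.21, adjusted p = 8.24e-05), as were ANPEP (3.31, SE 0.85, adjusted p = 0.0187) and DPP4 (1.17, SE 0.27, adjusted p = 0.0114). CDHR2 (0.43, SE 1.14) and CDHR5 (-1.43, SE 1.10) did not pass. The members' median was -1.43, against -0.02 for all genes tested.

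The calls of VIL1, ALPP, MYO1A and EZR held in every alternative that tested them. DPP4 lost its call without DLD1 under hypoxia (0.98, adjusted p = 0.0575), without HCT116 under hypoxia (0.77, adjusted p = 0.103), without HCT8 under hypoxia (1.15, adjusted p = 0.0649) and without the treatment term. ANPEP lost it without HCT116 under hypoxia (4.79, adjusted p = 0.0591), without HCT8 under hypoxia (2.66, adjusted p = 0.117) and without the treatment term, and ALPI lost it in DESeq2 (adjusted p = 0.105). With scaling by library totals the median of all genes moved to -0.31 and the share of calls that were higher went from 56.1% to 41.4%, with the same 7 members called.

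DLD1 and HCT8 are lines known to share an origin. Of 9 members, 2 were called between them, both lower in DLD1, against 15.7% of all genes (6.86% higher and 8.8% lower in DLD1). VIL1 was lower in DLD1 (-4.63, SE 0.33, adjusted p = 0.000114), as was ALPI (adjusted p = 0.00210), with 4 and 0 counts in DLD1. The fitted ALPI value of -8.22 rested on those counts and ran from -12.87 without untreated DLD1 to -6.55 without DLD1 under hypoxia. The untreated HCT8 level of ALPI was 107 times that of DLD1 (41.4 to 393). CDHR5 was not called (-4.00, SE 1.23, adjusted p = 0.0632), but passed in DESeq2 (adjusted p = 0.0427) and with library totals (adjusted p = 0.0455), and ALPI did not pass in DESeq2 (adjusted p = 0.0943). ALPP (-0.53, SE 0.35), MYO1A (-0.24, SE 0.59), EZR (0.48, SE 0.26) and DPP4 (-0.64, SE 0.32) did not pass. The members' median was -0.64, against -0.01 for all genes. Library totals moved the median of all genes to -0.15 and the share of calls that were higher from 43.8% to 33.3%.

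The other microvillus genes did not follow 1 pattern across lines. Of 25 core and actin bundling genes, members included, 24 were tested in HCT116 against the other lines. Of these, 5 were called higher and 10 called lower, against 18.4% and 14.4% of all genes. The actin bundler ESPN was higher in HCT116 (log2 fold change 3.5, adjusted p = 1.01e-05), at 87.9 and 112 CPM, and also stood at 83.0 CPM in NCM460 but at 0.353 CPM in HIEC6. The capping factor relative EPS8L3 was lower in HCT116 (-6.05, adjusted p = 4.28e-06), at 0.459 and 0.614 CPM, against 26.8 and 40.3 CPM in DLD1 and 48.4 and 68.6 CPM in HCT8, the order that VIL1 had in these 3 lines. PLS1, an actin bundler of the same core, was present in all libraries at 20.0 to 81.7 CPM. Between DLD1 and HCT8, 6 of 24 were called higher in DLD1 and 4 called lower (6.86% and 8.8% of all genes), with ESPN among the lower (-4.09, adjusted p = 8.95e-05).

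Of the ERM family, which links actin to the membrane, moesin (MSN) had 303 CPM in NCM460, 1033 in HIEC6 and 393 and 466 in HCT116, but 0.469 and 2.13 in DLD1 and 0.741 and 0.527 in HCT8. It was higher in HCT116 (9.22, adjusted p = 4.46e-06), together with EZR and radixin (RDX, 1.5, adjusted p = 0.000667). Of 10 genes of this list tested, 3 were called higher and 2 called lower, where 32.8% of all genes were called.

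The intermicrovillar adhesion complex, of which CDHR2 and CDHR5 are the cadherins, had 5 of its 6 genes at their highest in HCT8 under hypoxia. For CDHR2 this rested on 24 counts, against 23 in untreated HCT116 and 22 in untreated HCT8, a difference within counting error. The share of all genes that were highest in that library was not computed. USH1C, the scaffold of the complex, stood at 73.9 and 103 CPM in HCT8, 21.6 and 25.8 in HCT116, 27.6 in NCM460, 0.794 in HIEC6 and 0.137 and 0.767 in DLD1. Its motor MYO7B reached 2.66 and 7.34 CPM in HCT8 and at most 0.564 CPM elsewhere. Of 5 genes tested between DLD1 and HCT8, all were lower in DLD1 and 3 were called, where 8.8% of all genes were called lower: MYO7B (adjusted p = 0.00105), USH1C (-7.58, adjusted p = 8.21e-05) and CALML4, its light chain (-2.34, adjusted p = 0.00320). The scaffold ANKS4B did not exceed 0.244 CPM in any library.

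Other surface enzymes and transporters differed widely in level. Of 18 peptidases and disaccharidases, 11 reached 1 CPM in at least 1 library. The other 7 stayed below 1 CPM in all libraries, sucrase-isomaltase (SI) with no count at all. In single libraries, 13155 to 14787 of the 54261 genes reached 1 CPM. The share of all genes below 1 CPM in all libraries was not computed, for these lists or the others. The glutamyl transferase GGT1 was higher in DLD1 than in HCT8 (5.36, adjusted p = 4.95e-05), at 62.0 and 82.6 CPM, and the dipeptidase DPEP1 was lower (-4.28, adjusted p = 0.00330). Of 12 tested in HCT116 against the other lines, 4 were called higher and 1 called lower, against 18.4% and 14.4% of all genes. Of 29 apical transporters and channels, 15 stayed below 1 CPM in all libraries and 14 reached it in at least 1. The efflux pump ABCC2 was higher in HCT116 (7.04, adjusted p = 2.16e-06), at 156 and 78.5 CPM against 0.665 to 1.73 CPM, and ABCB1 was lower (-4.44, adjusted p = 1.12e-05).

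Transcription factors of intestinal identity are listed for comparison with VIL1. CDX1 stood at 25.3 and 39.7 CPM in HCT8 and at no more than 2 counts elsewhere. CDX2 stood at 163 and 237 CPM in DLD1 and 295 and 402 in HCT8, against 19.3 and 9.64 in HCT116, 19.9 in NCM460 and 0.0529 in HIEC6. ISX, a homeobox gene of the intestine, had 42.8 and 48.1 CPM in HCT8, 4.75 and 8.28 in DLD1 and at most 1 count elsewhere. HCT8 and DLD1 were thus the libraries with both VIL1 and the highest CDX2. CDX2 was picked after its levels were seen. Of 19 such factors tested in HCT116 against DLD1 and HCT8, 11 were called lower and 3 called higher, against 14.4% and 18.4% of all genes. The 3 called higher, in the line where VIL1 was at or near the floor, were KLF4 (2.45, adjusted p = 0.00802), PRDM1 (1.94, adjusted p = 0.00983) and TCF7L2 (1.22, adjusted p = 0.00284). Between DLD1 and HCT8, CDX1 (adjusted p = 0.000121) and ISX (-2.70, adjusted p = 0.00174) were lower in DLD1, and MAF was higher (3.44, adjusted p = 0.0139).

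**Figure D5:**
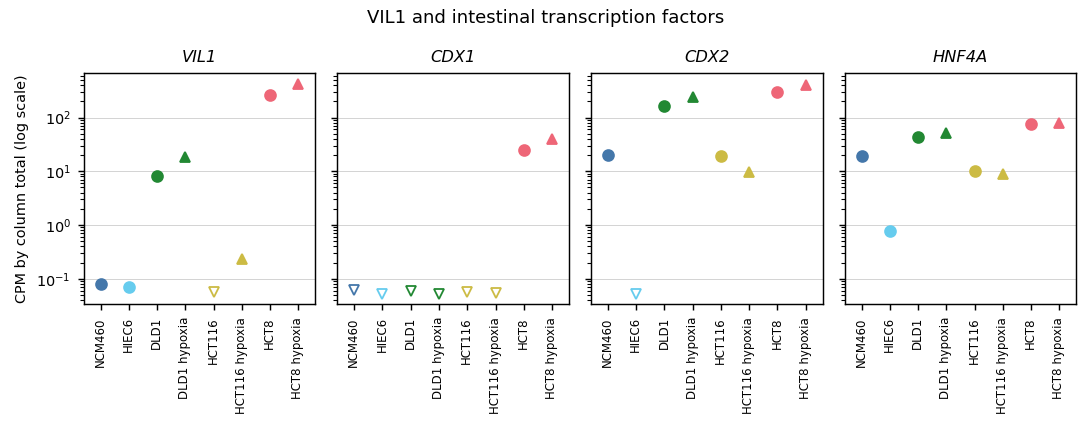
CPM by column total (log axis, shared) of VIL1 and the transcription factors CDX1, CDX2 and HNF4A in the 8 libraries, coloured by line, with filled triangles for hypoxia and open triangles for 3 counts or fewer at the floor. CDX1 is above the floor in the HCT8 libraries alone, and VIL1, CDX2 and HNF4A are highest in HCT8. Factors called higher in HCT116, such as KLF4, are not shown.

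Of 21 markers of the mature colonocyte, 15 stayed below 1 CPM in all libraries, including KRT20 (at most 0.976 CPM), CA1 and MS4A12 (no count). Of those expressed, CDKN1A, an inhibitor of the cell cycle, stood at 21.5 to 371 CPM and TSPAN1 at 0.970 to 83.8 CPM, and PLAC8 reached 139 CPM in HIEC6. CA2 stood at 14.8 to 35.0 CPM in all libraries but HIEC6, which had no CA2 count. LGALS4, a lectin of differentiated colon, reached 1.73 CPM in untreated HCT8 and 8.59 CPM in HCT8 under hypoxia. It was lower in DLD1 than in HCT8 (adjusted p = 0.00703). Some markers went the other way. CEACAM1 (log2 fold change 2.31, adjusted p = 0.0099) and CDKN1A (1.91, adjusted p = 0.000728) were called higher in HCT116. TSPAN1 was higher in DLD1 than in HCT8 (1.06, adjusted p = 0.0459). Of 10 markers tested, 2 were called higher and 5 lower in HCT116 against DLD1 and HCT8 (18.4% and 14.4% of all genes). Between DLD1 and HCT8, 1 was called higher in DLD1 and 3 lower (6.86% and 8.8% of all genes). Of 12 lipid handling genes of absorptive cells, 9 stayed below 1 CPM, with no FABP2 or APOB count. Of 12 crypt stem cell genes, 10 reached 1 CPM in at least 1 library. LGR5 and ASCL2 stood at 42.5 and 157 CPM in untreated DLD1 and at 5.91 and 89.8 CPM in untreated HCT8, against no more than 0.126 CPM in the other lines. CD44 and PROM1 were instead called higher in HCT116 (5.46, adjusted p = 2.78e-06, and 5.62, adjusted p = 3.69e-06).

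By the treatment and with the line block, 0.95% of all genes tested were called. Of the lists around the members, 0 of 24 microvillus genes, 0 of 10 ERM and scaffold genes and 0 of 5 adhesion complex genes passed. Of the peptidases 0 of 12 passed, of the transporters 0 of 16 and of the phosphatases 2 of 4. The 2 phosphatases were ALPP and ALPPL2, between which reads could be split, so their calls may not be independent. Of the microvillus genes 22 of 24 had a positive log2 fold change, with a median of 0.38 against 0.03 for all genes. The share of all genes with a positive value was not computed. The keratin KRT19 was called (1.56, adjusted p = 0.0115), with 738, 854 and 781 CPM untreated and 1907, 2075 and 2392 CPM under hypoxia in DLD1, HCT116 and HCT8.

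The genes whose log2(CPM + 1) followed the members most closely over the 8 libraries, a description over only 5 lines, differed from member to member. EN1, a homeobox gene below 1.10 CPM, followed VIL1 (Pearson r = 0.9995), and the spermine oxidase gene SMOX followed EZR (r = 0.992). TFAP2C, a transcription factor of trophoblast, followed ALPP (r = 0.985), with 99.7 CPM in HIEC6, 35.9 and 55.9 in DLD1, 37.5 and 56.3 in HCT8, 12.7 and 17.6 in HCT116 and 13.1 in NCM460. It held the same 3 lines above the other 2 as ALPP did, with a narrower range. That order follows from its choice as the closest of 21647 genes, and a link between the 2 genes was not tested. GET4 followed MYO1A (r = 0.989), LURAP1 CDHR5 (r = 0.997), ZNF66 ALPI (r = 0.993), RPL35P1 ANPEP (r = 0.959) and LOC101927595 DPP4 (r = 0.979).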

How the data were processed

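Total RNA depleted of ribosomal RNA was sequenced by the authors on an Illumina HiSeq. The deposited values are raw read counts per gene, whole numbers in 8 columns that all matched a sample. The paper's methods name GRCh37, the submitters' processing notes GRCh38 and HISAT2 2.0.4, and the counting program, its use of strand and of reads with several matches are not given in the sources used here. Gene positions and overlaps were taken from a GRCh37 annotation, and promoters from RefSeq (GRCh38.p14), placed in GRCh37 by exact match.

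The members and all gene lists were chosen with earlier results of these data known. CPM were counts over the column total. Comparisons used edgeR 4.0.16 (R 4.3.3; TMM, genes with 10 or more counts in 2 or more of the fitted libraries, glmQLFit and glmQLFTest, Benjamini-Hochberg over all genes tested, threshold 0.05), and SE was the log2 fold change over the square root of F. Alternatives were DESeq2 1.42.0, limma-trend 3.58.1 (prior count 1), upper-quartile scaling, library totals, 10 counts in every library, no filter, each library left out, and the cell line as block. The script was tested on simulated data. TMM factors over the 8 libraries ran from 0.790 (HCT116 under hypoxia) to 1.16 (HCT8), and CPM ratios do not carry them. Replicate numbers of the untreated and hypoxia libraries mark the cell line, so they pair the samples. Deviations from group means correlated at 0.865 to 0.873 within a line and at -0.62 to -0.0979 between lines. Subtracting the mean of so few libraries pushes the values between lines below 0, so only those within a line bear on the pairing. P-values measure the spread between these libraries, as the labels name no separate cultures. From each list and comparison at most 3 called genes per direction with the largest change were eligible for naming, and the top 3 by Pearson r for each member with 1 CPM in 2 libraries. Values outside that rule, such as those of PLS1, CDX2, HNF4A or COL1A2, were chosen after they were seen. Intervals and floors cover counting error only. Some members of the gene lists are not reported here.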

Additional observations from a re-analysis of the deposited data

Results flagged for a closer look

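For EZR, the ratio of hypoxia to untreated CPM pointed in different directions between lines, at 1.23 in HCT116 and 1.13 in HCT8 but 0.842 in DLD1. For CDHR2 the ratio was 8.03 in DLD1 and 0.123 in HCT116, resting on 1 and 9 counts in DLD1 and on 23 and 3 in HCT116. Each value comes from 1 pair of libraries, and the difference between lines was not tested.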

How the results depend on the processing

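All counts here are of genes or members past an adjusted p of 0.05. For CRC against normal lines, 0 genes and 0 members passed in edgeR, and DESeq2 gave 143 and 1 (VIL1). The replicate block there joins different lines that share only a number and called 0 genes. For hypoxia, 0 passed without the block; DESeq2 gave 55 genes. With the replicate block the cell lines were paired: 200 genes and 1 member, which changed no other member's call than that of ALPP. Fits added after the data were seen gave, with the block, 1666 genes and 3 members (DESeq2), 172 and 1 (library totals), 292 and 1 without both DLD1 libraries, 738 and 2 (ALPP and VIL1) without both HCT116 libraries, and 6 and 0 without both HCT8 libraries.

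For HCT116 against DLD1 and HCT8, 4601 genes and 4 members passed with 10 counts in every library, a filter that removed 5 of 9 members. Leaving out 1 library gave 4337 to 7579 genes and 4 to 7 members, lowest without HCT8 under hypoxia. For DLD1 against HCT8 the counts were 937 to 6440 genes and 1 to 3 members, with 1 member (VIL1) without either HCT8 library; 1480 genes passed without the treatment term, and 0 members with 10 counts in every library. The genes fell without untreated DLD1 (1528), DLD1 under hypoxia (1198), untreated HCT8 (1218) and HCT8 under hypoxia (937), and grew without untreated HCT116 (5965) and HCT116 under hypoxia (6440). The cause was not tested.

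Directions that turned did so for members that were not called. In CRC against normal lines these were EZR (-1.29 to 1.22 with 1 library left out; 0.26 with the replicate block), ALPP (-5.43 to 4.99) and DPP4 (-3.91 to 8.40; 1.79 in limma-trend, 1.56 with the replicate block). Under hypoxia, the fits with 1 library left out had no line block, so the line of that library remained in 1 condition only. Their ranges were -3.09 to 5.08 for VIL1, -1.09 to 1.5 for EZR and -0.13 to 1.16 for MYO1A. For CDHR2 the range was -1.27 to 0.26, and for CDHR5 -0.56 to 4.13. These ranges do not give the direction within a line, and VIL1 was higher under hypoxia in all 3 lines. The negative values of VIL1, MYO1A and CDHR5 came without HCT8 under hypoxia and that of EZR without HCT116 under hypoxia, and CDHR2 was positive without either HCT116 library or untreated HCT8. In paired fits, EZR was -0.03 without both HCT116 libraries, MYO1A -0.23 without both HCT8 libraries, ALPI -0.74 in DESeq2, and CDHR2 0.01, 0.18 in DESeq2 and 1.13 without both HCT116 libraries. In limma-trend CDHR2 was 0.05 and ALPI -0.34. In HCT116 against the other lines CDHR2 ran from -1.87 to 1.87 (negative without untreated DLD1 or HCT116), and between DLD1 and HCT8 MYO1A ran from -0.96 to 0.64, ALPP from -1.31 to 0.17 and ANPEP from -2.49 to 3.25, turned without untreated DLD1 (ALPP), DLD1 under hypoxia (ANPEP and MYO1A) or HCT8 under hypoxia (MYO1A). CDHR5 passed in HCT116 against the other lines without HCT116 under hypoxia (-7.51, adjusted p = 0.0162), and ALPI did not without untreated DLD1 (-5.88).

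Depth limits CDHR2, CDHR5 and ANPEP, whose untreated CRC libraries hold 0 to 79 counts, and SLC26A3, which no setting but the one without a filter tested.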
